A study of Mus musculus with 12 samples.

Results

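RNA sensors and interferon signalling factors were followed as 9 genes in NIH-3T3 cells, a mouse fibroblast line, edited at Crls1 or wild type. The genes were taken by symbol from the 54392 gene rows of the deposited table: the sensors Ddx58 (RIG-I), Ifih1 (MDA5), Dhx58 (LGP2) and Tlr3, the adaptor Mavs, and the transcription factors Stat2, Irf1, Irf7 and Irf9. The Crls1KO1, Crls1KO2 and Crls1KO3 genotypes, called KO1, KO2 and KO3 here, were set against Crls1WT, called WT, with 3 total RNA libraries in each of the 4 groups. Crls1 encodes cardiolipin synthase, which makes cardiolipin, the signature phospholipid of the inner mitochondrial membrane, and the study asked how cardiolipin bears on mitochondrial ribosomes and protein synthesis. Each KO line grew from 1 GFP-sorted cell after transfection of Cas9 with a guide against Crls1, so each genotype is 1 clone. Cells of all groups grew in the same medium, which contained pyruvate and uridine, and no virus, RNA or interferon was named as a treatment. Whether WT was sorted in the same way, and whether the libraries of a group came from separate cultures, is not stated in the labels. The p-values therefore measure the spread between libraries, which may be technical.

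RIG-I and MDA5 are cytosolic helicases that bind viral or misplaced cellular RNA, and LGP2 modulates both. When they are engaged, they act through MAVS, an adaptor in the outer mitochondrial membrane, while TLR3 detects RNA in endosomes and acts through the adaptor TRIF. Both routes lead to interferon, and the interferon receptor then acts through factors that include STAT2 and IRF9 and bind the interferon-stimulated response element (ISRE). The gamma-activated site (GAS) is a different element of interferon-responsive genes. Ddx58, Ifih1, Dhx58, Stat2, Irf7 and Irf9 are themselves known interferon-stimulated genes, and Irf1 is known to be induced by interferon.

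The promoters of the members are shown where they hold letters of these elements, because the members are read here both as parts of the pathway and as targets of it. RefSeq promoters on GRCm38.p6, from 250 bases before to 50 after a start site, matched 8 of the 9 members with 10 promoters; Dhx58 had no entry. The letters searched for ISRE were 2 copies of GAAA with any 2 bases between them, or 2 copies of TTTC likewise for the other strand. For GAS they were TTC and GAA with any 3 bases between them, which reads the same on both strands; no match overlapped another. ISRE letters stood in 3.44% and GAS letters in 8.30% of all 32851 promoters of this length. The promoters follow on the strand of their gene, 5′ to 3′, with the match in capitals.
Ddx58, chr4:40239776-40240075, minus strand, ISRE letters from 3 to 12 after the start: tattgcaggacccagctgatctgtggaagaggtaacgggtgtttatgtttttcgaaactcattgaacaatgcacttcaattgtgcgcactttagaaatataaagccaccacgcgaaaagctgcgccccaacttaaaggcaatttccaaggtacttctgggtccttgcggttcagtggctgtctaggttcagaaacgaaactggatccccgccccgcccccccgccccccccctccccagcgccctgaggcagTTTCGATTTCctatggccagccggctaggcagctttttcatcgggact
Ifih1, chr2:62646206-62646505, minus strand, ISRE letters from 33 to 42 after the start: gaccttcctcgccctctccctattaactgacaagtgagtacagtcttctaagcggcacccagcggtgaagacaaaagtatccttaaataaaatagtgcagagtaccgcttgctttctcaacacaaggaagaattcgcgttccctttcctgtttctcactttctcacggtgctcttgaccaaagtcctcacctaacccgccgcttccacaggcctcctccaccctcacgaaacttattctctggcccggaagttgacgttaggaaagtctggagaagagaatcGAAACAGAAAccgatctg
Stat2, chr10:128270248-128270547, plus strand, ISRE letters from -222 to -213: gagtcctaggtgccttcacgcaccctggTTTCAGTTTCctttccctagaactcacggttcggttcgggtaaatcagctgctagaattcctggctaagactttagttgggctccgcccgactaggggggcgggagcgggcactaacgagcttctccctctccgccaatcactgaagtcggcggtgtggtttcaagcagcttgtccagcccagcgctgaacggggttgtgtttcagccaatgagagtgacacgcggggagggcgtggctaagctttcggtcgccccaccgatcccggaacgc
Irf1, the first of its start sites, chr11:53769764-53770063, plus strand, GAS letters from -90 to -82: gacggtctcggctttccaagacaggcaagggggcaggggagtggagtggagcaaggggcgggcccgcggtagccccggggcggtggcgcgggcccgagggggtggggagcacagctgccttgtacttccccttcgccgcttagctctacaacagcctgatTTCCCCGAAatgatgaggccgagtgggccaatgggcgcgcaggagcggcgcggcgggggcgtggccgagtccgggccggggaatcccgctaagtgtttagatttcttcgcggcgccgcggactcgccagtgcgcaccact
The promoters of Mavs, Tlr3, Irf7 and Irf9 and the other start site of Irf1 held neither set of letters in these windows. A match is a match of letters and was not tested as a binding site. The 4 genes with a match did not share a pattern: Ddx58 and Irf1 differed from WT in KO1 and KO2, Stat2 was called in no clone with all libraries and in all 3 without WT replicate 1, and Ifih1 was almost silent.

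Recovered reads ranged from 32929242 to 42211807 per library. Crls1 fell in all 3 clones, to 210.4 ± 2.7 normalized read counts in KO1, 349.3 ± 21.1 in KO2 and 381.0 ± 23.9 in KO3, against 815.4 ± 68.4 in WT (SD, n = 3 each), with log2 differences of -1.95, -1.22 and -1.09. Its level was higher in KO2 than in KO1 (log2 difference 0.73) and in KO3 than in KO1 (0.85). The labels do not say where the guide cuts, so these counts show RNA of the gene and not whether the protein is made. No 2 libraries of a group agreed within sampling noise, and WT replicate 1 stood apart: the chi-square of reads per degree of freedom was 52.9 and 55.6 between it and the other WT libraries, against 17.2 between those and 4.63 to 25.04 within clones. All 10 fibroblast markers averaged at least 10 in every group, but their levels differed. Col3a1 averaged 7939, 884 and 3664 in KO1, KO2 and KO3, against 148 in WT. Pdgfra averaged 26300 in KO2, against 7355 in WT. Pdgfrb was lower in the clones (3809, 4471 and 3779, against 5347 in WT). The 8 leukocyte markers summed to 181 to 274 in KO1, 188 to 237 in KO2, 117 to 131 in KO3 and 542 to 716 in WT, most of it Csf1r (530.9 on average in WT). The defining leukocyte gene Ptprc averaged 32.3 in KO1 and at most 1.29 in KO2, KO3 and WT; Tyrobp was at 0 in the 3 clones and Cd3e in KO3 and WT. The 6 epithelial markers summed to 212 to 383 in the clones and 97.6 to 111 in WT, with Epcam at 0 in KO1, KO2 and WT. Within that list Cdh1 was higher in the clones (350, 185 and 307 in KO1, KO2 and KO3, against 17.8 in WT), and Krt8 was lower (5.26, 9.59 and 4.41, against 84.8 in WT). The 5 endothelial markers summed to 120 to 330 in the clones and 78.8 to 109 in WT. The part of these marker differences in the results below was not tested.

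KO1 and KO2 had more RNA of the sensor Ddx58 and the factor Irf1 than WT, while KO3 had Ddx58 near the WT level and less Mavs, Tlr3 and Irf9. Of the 9 members, 7 were above 10 normalized read counts in every library and were tested; Ifih1 and Irf7 were not. Of these 7, KO1 had 2 that rose and 0 that fell, KO2 had 2 and 0, and KO3 had 0 and 3, by limma on log2(normalized count + 1) with Benjamini-Hochberg adjustment over 15073 genes at an adjusted p of 0.05. Of all tested genes, 26.9% were called higher and 25.4% lower in KO1, 29.9% higher and 30.5% lower in KO2, and 26.8% higher and 27.3% lower in KO3. Read against these shares, 2 or 3 of 7 members is near the background. Their median log2 difference was 0.14 in KO1, 0.22 in KO2 and -0.10 in KO3, beside 0.02, 0.00 and 0.00 over all tested genes. The 3 comparisons share the WT libraries. Without WT replicate 1, 4 members rose in KO1, 4 in KO2 and 1 in KO3, where 1 fell. In KO3 the number that fell was also 1 without KO2 replicate 2, without KO3 replicate 2 or without KO3 replicate 3. In bulk libraries, a gene used in fewer cells and less of its RNA per cell cannot be told apart.

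**Figure D1:**
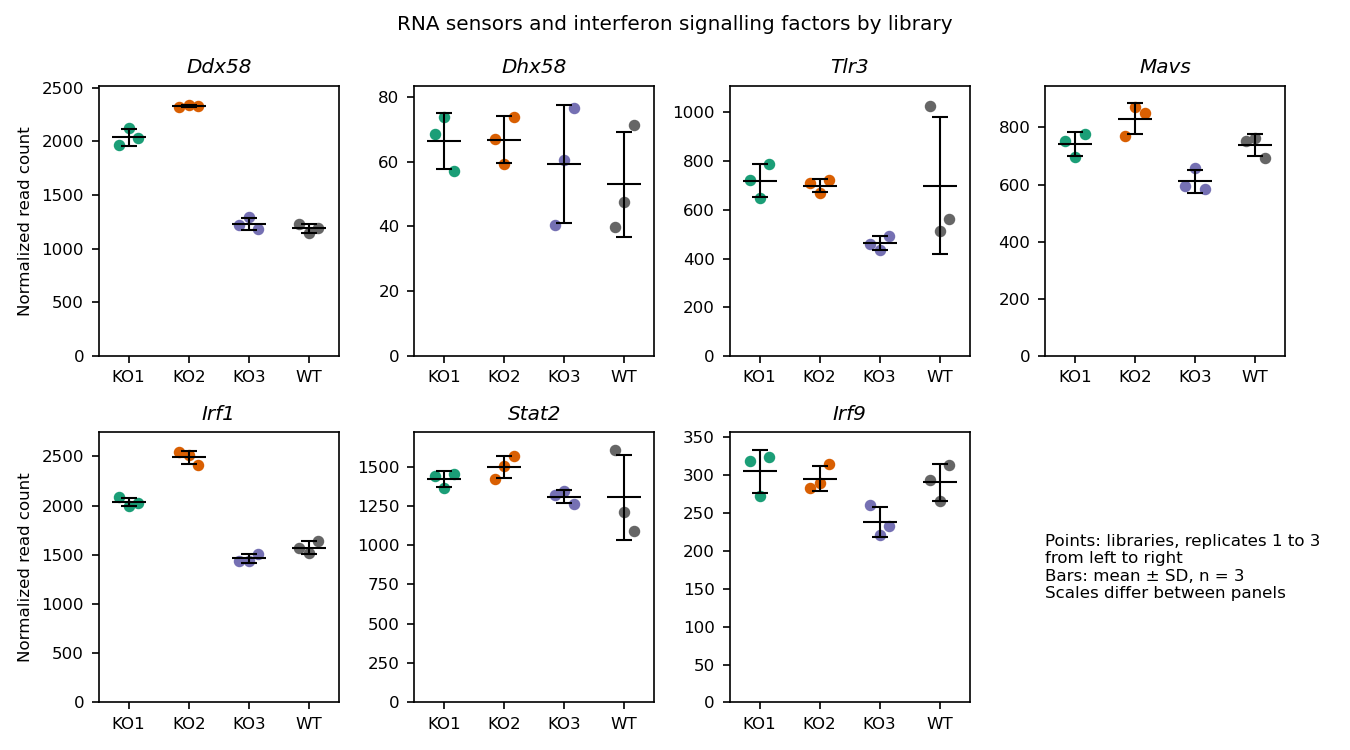
Normalized read count (y axis, linear from 0, scale differs between panels) of the 7 tested members in the KO1, KO2, KO3 and WT libraries; points are libraries and bars the mean ± SD of 3. Ddx58 and Irf1 were higher in every KO1 and KO2 library than in every WT library, and 1 WT library stood far above the other two for Tlr3.

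The log2 differences between clones do not use the level of WT, but their tests share its spread. In KO3 against KO1, 0 members rose and 5 of 7 fell, where 20.3% of all genes rose and 23.4% fell. In KO3 against KO2, again 0 rose and 5 fell, beside a background of 26.1% and 27.0%. In KO2 against KO1, 2 rose and 0 fell, with 20.5% and 23.9% of all genes called. The member medians were -0.35, -0.44 and 0.07 in that order, and those of all genes -0.01, -0.01 and -0.02. The first pair of comparisons shares the KO3 libraries. The 5 genes that fell were Ddx58, Tlr3, Mavs, Irf1 and Irf9 in both. Against KO1 this count was 2 without KO1 replicate 3 and 3 without KO1 replicate 1 or KO3 replicate 2. Against KO2 it was 3 without KO2 replicate 3 or KO3 replicate 2 and 6, with Stat2, without WT replicate 1, and in KO2 against KO1 only 1 member rose without KO1 replicate 1.

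**Figure D2:**
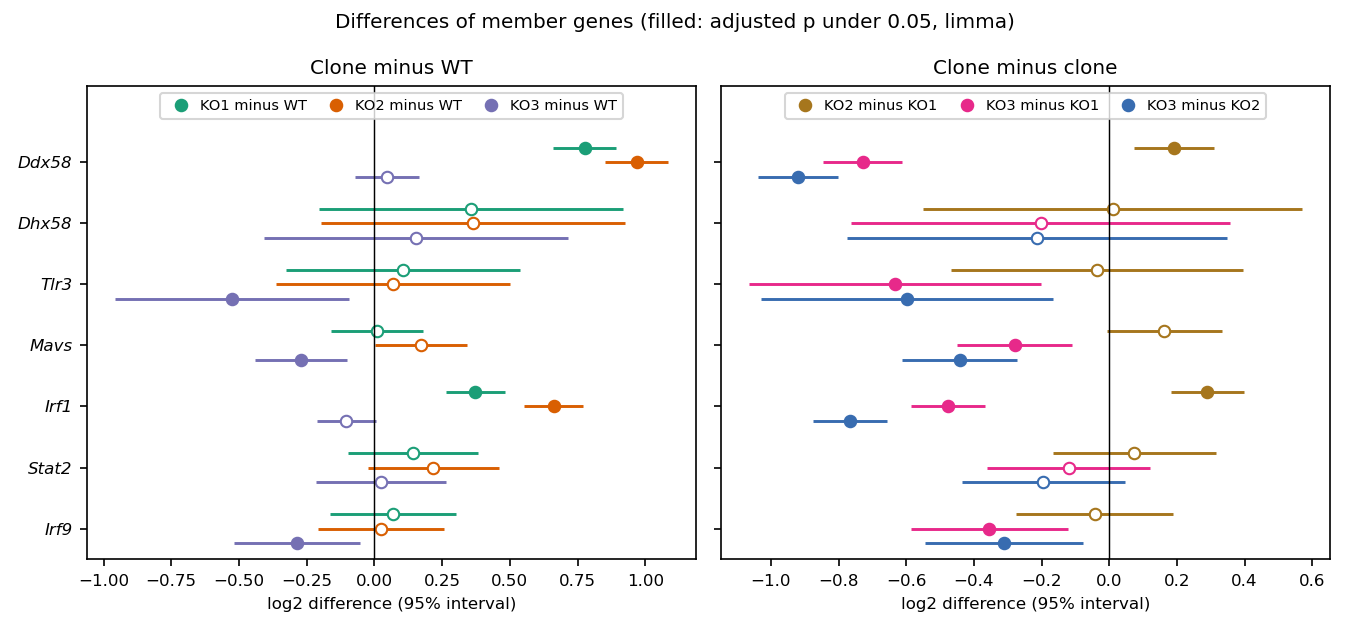
Log2 difference with its 95% interval (x axis) for each tested member, clones minus WT on the left and clone minus clone on the right; filled points have an adjusted p under 0.05 by limma. Ddx58 and Irf1 lie right of 0 in KO1 and KO2 against WT, and 5 members lie left of 0 in KO3 against each other clone.

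Ddx58 encodes RIG-I, which recognises short RNAs with a triphosphate end; the gene lies on chromosome 4 from 40203773 to 40239828 (GRCm38, minus strand). Its normalized read counts were 1961.8, 2119.2 and 2035.2 in KO1, 2317.5, 2335.3 and 2328.0 in KO2, 1215.9, 1292.5 and 1181.5 in KO3, and 1230.1, 1145.2 and 1194.0 in WT. All KO1 and KO2 libraries were above all KO3 and WT libraries, and KO3 and WT overlapped. Ddx58 rose in KO1 (log2 difference 0.78, SE 0.05, adjusted p = 1.52e-07) and in KO2 (0.97, SE 0.05, adjusted p = 1.67e-08; limma). In KO3 the log2 difference from WT was 0.05, with a 95% interval of -0.07 to 0.16 (adjusted p = 0.482). These calls were the same in all 23 alternatives of processing. KO3 fell below KO1 by 0.73 and below KO2 by 0.92 on the log2 scale. KO2 was above KO1 by 0.19 (adjusted p = 0.0120), a call that was lost without KO1 replicate 1 (0.16, adjusted p = 0.0545). The 25 neighbours on each side of Ddx58 had a median log2 difference of 0.05 in KO1, 0.02 in KO2 and 0.04 in KO3.

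Dhx58 encodes LGP2, a relative of RIG-I without signalling domains of its own, on chromosome 11 from 100694884 to 100704271 (minus strand). It was weakly expressed, at 66.5 ± 8.6 normalized read counts in KO1, 66.8 ± 7.2 in KO2, 59.2 ± 18.2 in KO3 and 53.0 ± 16.4 in WT (SD, n = 3 each). Every clone overlapped with WT and with each other clone. The log2 differences from WT were 0.36, 0.37 and 0.15 in KO1, KO2 and KO3 (adjusted p = 0.269, 0.240 and 0.641; limma). Their 95% intervals ran from -0.21 to 0.92, -0.20 to 0.93 and -0.41 to 0.71, so they hold both no change and, in KO1, a rise as large as that of Ddx58. Dhx58os, an antisense gene with a mean of 59.6 normalized read counts, overlaps Dhx58, and without a stated strand setting the reads of the pair cannot be told apart.

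Ifih1, which encodes MDA5, a sensor of long RNA duplexes, was almost silent in these cells (chromosome 2, 62595798 to 62646255, minus strand). It had 0 reads in each KO1 library, 0, 0 and 1 in the KO2 libraries, 0 in each KO3 library and 0 in each WT library. The summed depth was 102636282 reads in KO1, 113595781 in KO2, 112645294 in KO3 and 110704020 in WT. At these depths a floor of 3 reads is 0.0292 RPM in KO1, 0.0264 in KO2, 0.0266 in KO3 and 0.0271 in WT. Ifih1 was thus at or under the floor in every group, so no fold is given. The exact 95% counting interval of the single KO2 read is 0.0253 to 5.57 reads, and it covers counting error only.

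Tlr3, the endosomal sensor, lies on chromosome 8 from 45395665 to 45411080 (minus strand). It had 721.4, 650.1 and 786.9 normalized read counts in KO1, 710.0, 667.9 and 720.9 in KO2, 459.2, 435.2 and 493.3 in KO3, and 1025.5, 512.5 and 561.8 in WT. WT replicate 1 was the highest of all 12 libraries, the other WT libraries were below every KO1 and KO2 library, and all KO3 libraries were below all others. Tlr3 fell in KO3 (log2 difference -0.53, SE 0.20, adjusted p = 0.0399; limma), and this call held in 13 of 23 alternatives. Without WT replicate 1 the KO3 difference was -0.22 (adjusted p = 0.0673). The call was also lost without KO1 replicate 1, KO2 replicate 1 or 2 or any 1 KO3 library (adjusted p from 0.0515 to 0.105). With all libraries the differences were 0.11 in KO1 and 0.07 in KO2 (adjusted p = 0.679 and 0.783), whereas without WT replicate 1 Tlr3 rose in both, by 0.42 (adjusted p = 0.00239) and 0.38 (adjusted p = 0.00349). Leaving out WT replicate 1 thus changed the call of Tlr3 in every clone, and the KO3 call depended on other libraries as well. KO3 was also lower than KO1 (log2 difference -0.63, adjusted p = 0.0211, called in 18 of 22 alternatives) and than KO2 (-0.60, adjusted p = 0.0231, 17 of 22). Those calls were lost without KO1 replicate 1 or 3, without KO2 replicate 1 or 3, and without KO3 replicate 1 or 2 (adjusted p from 0.0536 to 0.0752).

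Mavs, the mitochondrial adaptor on which RIG-I and MDA5 converge, lies on chromosome 2 from 131234063 to 131248025 (plus strand). Its normalized read counts were 753.5, 695.5 and 776.1 in KO1, 769.7, 871.1 and 851.0 in KO2, 594.0, 656.3 and 582.8 in KO3, and 753.8, 764.1 and 692.7 in WT. KO1 overlapped with WT, each KO2 library was above each WT library by a small margin, and each KO3 library was below each WT library. Mavs fell in KO3 (log2 difference -0.27, SE 0.08, adjusted p = 0.0109; limma). The log2 difference was 0.01 in KO1 (95% interval -0.16 to 0.18, adjusted p = 0.933) and 0.17 in KO2 (adjusted p = 0.0752). The KO2 difference was called by edgeR (adjusted p = 0.0481) and without KO2 replicate 1 (adjusted p = 0.0382), and in none of the other 21 alternatives. KO3 was below KO1 (-0.28, adjusted p = 0.0116; -0.25 and 0.0513 without KO1 replicate 3) and below KO2 (-0.44, adjusted p = 4.31e-04). In KO3 the neighbouring genes were lower too: the median of the 25 on each side differed from WT by -0.34. After it was subtracted, the KO3 difference of Mavs from WT was 0.07 (adjusted p = 0.527), and those from KO1 and KO2 were 0.04 and -0.01. The edited gene Crls1 lies on the same chromosome, from 132846666 to 132866785 (plus strand). The part of the region, or of its place near the edited gene, in the fall of Mavs was not tested.

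**Figure D3:**
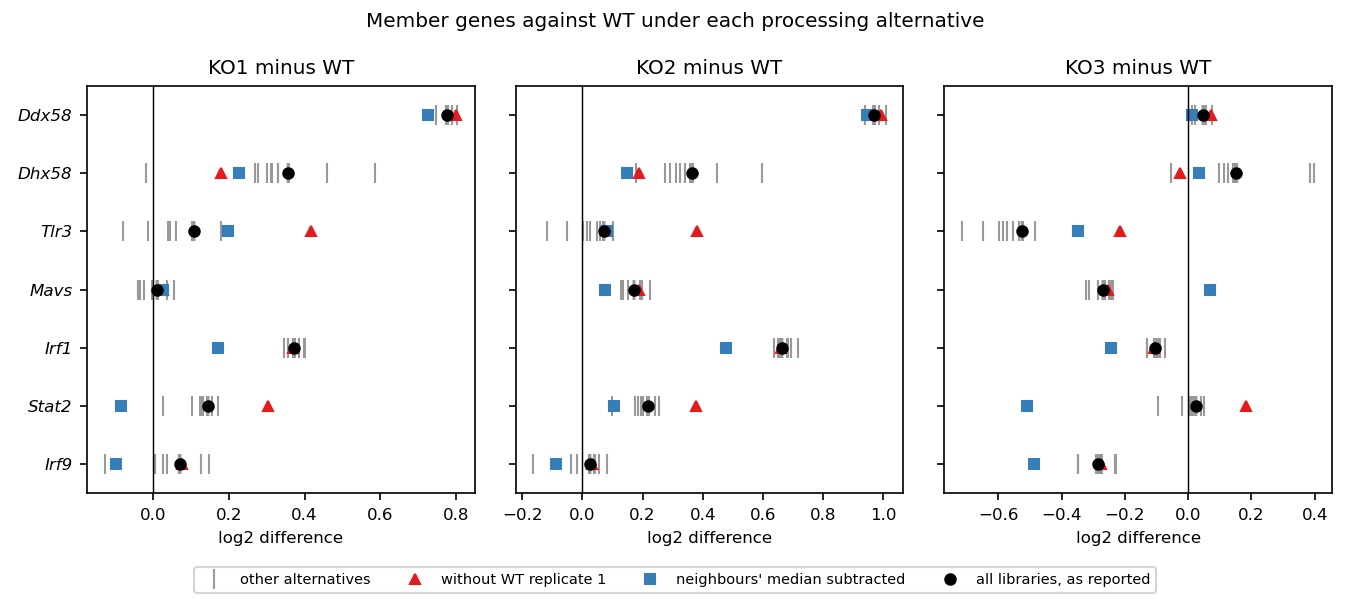
Log2 difference from WT (x axis) of each tested member in KO1, KO2 and KO3 with all libraries (black), without WT replicate 1 (red), with the neighbours' median subtracted (blue) and under the other alternatives (grey). Ddx58 stays in place, Tlr3 and Stat2 move to higher values without WT replicate 1, and Mavs in KO3 moves from -0.27 to 0.07 when the neighbours' median is subtracted.

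Irf1, a transcription factor that activates interferon-response and antigen presentation genes, lies on chromosome 11 from 53770014 to 53778374 (plus strand). It had 2084.9, 1996.7 and 2026.3 normalized read counts in KO1, 2539.5, 2514.5 and 2416.7 in KO2, 1441.9, 1433.8 and 1512.9 in KO3, and 1565.3, 1514.8 and 1639.2 in WT. The groups did not overlap, with KO2 highest, then KO1, then WT, and KO3 just below WT. Irf1 rose in KO1 (log2 difference 0.37, SE 0.05, adjusted p = 5.28e-05) and in KO2 (0.66, SE 0.05, adjusted p = 2.53e-07; limma). In KO3 the difference was -0.10 (95% interval -0.21 to 0.00, adjusted p = 0.0975). The calls in KO1 and KO2 held in all 23 alternatives, including the subtraction of the neighbours' median (0.17 with adjusted p = 0.0220 in KO1, 0.48 in KO2). In KO3 that subtraction gave -0.24 (adjusted p = 0.00259), and no other alternative called it. KO2 was above KO1 (0.29, adjusted p = 5.14e-04), KO3 was below KO1 (-0.48, adjusted p = 1.04e-05), and KO3 was below KO2 (-0.77, adjusted p = 1.01e-07).

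Irf7, the factor that amplifies interferon production and is usually induced by interferon itself, was almost silent (chromosome 7, 141262706 to 141266481, minus strand). Its reads were 0, 1 and 0 in KO1, 0 in each KO2 library, 0 in each KO3 library, and 2, 0 and 2 in WT. The exact 95% counting intervals of the sums were 0.0253 to 5.57 reads in KO1 and 1.09 to 10.2 in WT, and they overlap. Phrf1, which overlaps Irf7 on the opposite strand, averaged 3106 normalized read counts.

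Stat2 encodes the STAT that binds IRF9 and lies on chromosome 10 from 128270559 to 128292849 (plus strand). Its normalized read counts were 1442.7, 1364.6 and 1455.8 in KO1, 1423.7, 1502.6 and 1564.9 in KO2, 1318.6, 1343.4 and 1261.4 in KO3, and 1606.4, 1212.5 and 1091.9 in WT. As for Tlr3, WT replicate 1 was the highest of the 12 libraries, and the other WT libraries were below every KO1, KO2 and KO3 library. The log2 differences from WT were 0.14, 0.22 and 0.02 in KO1, KO2 and KO3 (adjusted p = 0.299, 0.107 and 0.873; limma). Without WT replicate 1, Stat2 rose in all 3 clones, by 0.30, 0.38 and 0.18 (adjusted p = 0.00183, 2.87e-04 and 0.0296). The neighbours of Stat2 were higher in KO3 than in WT (median 0.53), and with that median subtracted the KO3 difference was -0.51 (adjusted p = 0.00419). The direction for Stat2 in KO3 thus depends on the alternative. Between clones, KO3 was at -0.12 from KO1 and -0.19 from KO2 (adjusted p = 0.414 and 0.160); KO3 against KO2 was called without WT replicate 1 (adjusted p = 0.0121) and with only the 2 groups compared (0.0225).

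Irf9, the DNA-binding partner of STAT2, lies on chromosome 14 from 55603571 to 55610030 (plus strand), and its start overlaps the end of Rnf31 on the same strand (mean of 627 normalized read counts). Its normalized read counts were 318.9, 272.3 and 323.6 in KO1, 282.7, 289.4 and 313.9 in KO2, 260.2, 221.1 and 233.3 in KO3, and 292.8, 265.1 and 313.4 in WT. KO1 and KO2 overlapped with WT, and the highest KO3 library lay just under the lowest WT library. Irf9 fell in KO3 (log2 difference -0.28, SE 0.11, adjusted p = 0.0395; limma), and this call held in 16 of 23 alternatives. The difference was -0.28 without WT replicate 1, -0.23 without WT replicate 3, -0.23 without KO3 replicate 2, -0.27 without KO3 replicate 3 and -0.28 without KO2 replicate 2 (adjusted p from 0.0519 to 0.132). In KO1 and KO2 the differences were 0.07 and 0.03 (adjusted p = 0.617 and 0.853). KO3 was also below KO1 (-0.35, adjusted p = 0.0176, called in 18 of 22 alternatives) and below KO2 (-0.31, adjusted p = 0.0273, 17 of 22). With quantile normalization these were -0.22 and -0.19 (adjusted p = 0.125 and 0.179). The first call was also lost without KO1 replicate 1 or 3 or KO3 replicate 2, and the other without KO2 replicate 2 or 3 or KO3 replicate 2 or 3 (adjusted p from 0.0526 to 0.0972).

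Per kilobase of merged exons, Irf1 had the highest level of the members in every group, at 512 ± 11 normalized read counts per kb in KO1, 626 ± 16 in KO2, 368 ± 11 in KO3 and 396 ± 16 in WT (SD, n = 3 each). In KO1 the order went on with Ddx58 (289 per kb), Stat2 (240), Mavs (222), Tlr3 (138), Irf9 (56.6) and Dhx58 (20.3). KO2 had the same order, with Ddx58 at 330 per kb, Stat2 at 253 ± 12 and Mavs at 248 ± 16. The libraries of Stat2 and Mavs overlapped on this scale in both clones. In KO3, Ddx58 took a lower place, at 174 ± 8.1 per kb, behind Stat2 (221 ± 7.1) and level with Mavs (183 ± 12). WT had Mavs at 220 ± 12 and Stat2 at 220 ± 45 per kb ahead of Ddx58 at 169 ± 6.0, and Tlr3 at 134 ± 54 lay within its spread of Ddx58. Irf7 and Ifih1 came last in each group. Merged exons join those of all annotated transcripts of a gene, so this length can exceed that of the RNA made. The order between genes depends on it.

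The genes most like each member were sought among non-member genes with a mean of at least 100 normalized read counts, without predicted gene models. Pearson correlations of log2 values over the 12 libraries are given as a description. The libraries share 4 groups, so r mostly reflects the group means. Ddx58 was most like Ptgfr (r = 0.988), a prostaglandin receptor gene, and Nckap5l (0.985), and Irf1 was most like Zfp667 (0.985) and Pde5a (0.985). Mavs was most like Inpp1 (0.941) and Lrrk1 (0.933). The genes closest to Tlr3 were Tead2 (0.948) and Slc4a3 (0.925), and those closest to Stat2 were Tnrc6b (0.943) and Kidins220 (0.939). Irf9 with Tmem164 (0.894) and Mtmr4 (0.875), and Dhx58 with Coa4 (0.804) and Ebpl (0.796), had the lowest values. None of these 14 genes is in the interferon lists used here, but weakly expressed genes of those lists, such as Ifit1 and Usp18, were outside the search.

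The other genes of the pathway were read from 8 lists with 152 genes, of which 123 were tested. The numbers that rose and fell were 49 and 29 in KO1, 46 and 29 in KO2, and 33 and 39 in KO3. The median log2 differences were 0.16, 0.06 and 0.00. The share that rose was 39.8% in KO1, 37.4% in KO2 and 26.8% in KO3, beside 26.9%, 29.9% and 26.8% of all genes. The share that fell was 23.6%, 23.6% and 31.7%, beside 25.4%, 30.5% and 27.3%. The lists include genes that averaged under 10 in WT and passed the filter through clones, which adds to the counts that rose.

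Interferon-stimulated effectors are genes that block viral entry, replication or assembly or present antigen; 25 of 32 listed were tested. Of these, 6 averaged under 10 in WT and passed the filter only through a clone, so the other 19 are given first. Most of the 19 rose in KO1 and KO2. The numbers that rose and fell were 15 and 2 in KO1, 14 and 2 in KO2, and 6 and 8 in KO3. The median log2 differences of the 19 were 0.77, 0.87 and 0.00. Of all tested genes, 26.9%, 29.9% and 26.8% rose and 25.4%, 30.5% and 27.3% fell in KO1, KO2 and KO3. In KO3 against KO1, 0 rose and 15 fell (median -0.64), and in KO3 against KO2, 0 rose and 16 fell (median -0.93). Of all genes, 23.4% and 27.0% fell in these comparisons. The split itself uses the WT level. Over all 25 the numbers that rose and fell were 21 and 2 in KO1, 18 and 2 in KO2, and 8 and 8 in KO3. They were 0 and 19 in KO3 against KO1 and 1 and 18 in KO3 against KO2. Of the 6 that passed through a clone, 6 rose in KO1, 4 in KO2 and 2 in KO3, and 0 fell. The share of the 25 is therefore not set against all genes. Across the alternatives that keep all 25, 19 to 21 rose in KO1, 15 to 18 in KO2 and 6 to 8 in KO3, and 16 to 19 fell in KO3 against KO1 and 17 to 20 in KO3 against KO2. With a mean of at least 100 only 15 were tested, of which 13 rose in KO1, 11 in KO2 and 6 in KO3, and 12 and 13 fell in KO3 against KO1 and against KO2. The 2 that fell in KO2 were 0 without KO2 replicate 2 or 3, without WT replicate 2 and with no filter. Genes of the list of negative regulators and ISG15 enzymes did not all follow the effectors. Usp18 rose in KO1 and KO2, while Isg15 and Herc6, chosen after their values were seen, did not. Isg15 was at -0.16 in KO1 and 0.01 in KO2 (limma, adjusted p = 0.411 and 0.965) and fell in KO3 (-1.26). Herc6 was at -0.12 in KO1 (limma, adjusted p = 0.547) and fell in KO2 (-1.15) and KO3 (-0.94). Ifit, Oas1, Gbp and Trim30 genes have near-identical relatives between which reads may have been split, so their values are uncertain. Ifit1, which binds foreign RNA ends and is counted among the sensor partners here, had 62.5 ± 1.7 normalized read counts in KO1, 57.0 ± 9.0 in KO2, 5.60 ± 0.53 in KO3 and 15.0 ± 3.4 in WT. It rose by 2.01 in KO1 and 1.87 in KO2 and fell by 1.26 in KO3 on the log2 scale (adjusted p = 8.66e-06, 1.16e-05 and 3.66e-04; limma).

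Several effectors were called in opposite directions in different clones. Gbp2, an interferon-induced GTPase, had 954 ± 42 normalized read counts in KO1, 1461 ± 20 in KO2, 301 ± 19 in KO3 and 509.8 ± 38.2 in WT, with log2 differences of 0.90, 1.52 and -0.76. Oas1a, an oligoadenylate synthetase that activates RNase L, had 310.5 ± 34.9 in KO1, 105.8 ± 17.7 in KO2, 4.04 ± 1.35 in KO3 and 154.0 ± 10.5 in WT (log2 differences 1.00, -0.55 and -4.98). Bst2, which tethers budding virions, rose in KO1 (1.28) and fell in KO3 (-1.44), with -0.16 in KO2 (adjusted p = 0.482). The proteasome subunit gene Psmb9 rose in KO1 (1.02) and KO2 (0.58) and fell in KO3 (-0.74), and Sp100 rose in KO1 (0.56) and fell in KO2 (-0.37) and KO3 (-0.62). Ifitm3, which blocks viral entry, rose in all 3 clones (1.57, 1.41 and 0.94), as did Trim30a (0.87, 1.91 and 0.62) and the weakly expressed Ifit3b (2.90, 4.64 and 2.76). In KO2 the calls of Oas1a, Sp100 and Psmb9 were weak: Oas1a lost its call without KO1 replicate 3, KO2 replicate 2 or 3 or WT replicate 2 or 3 (adjusted p up to 0.131), Sp100 without KO1 replicate 1 or any 1 library of KO2 or WT replicate 1 or 2 (up to 0.145), and Psmb9 without KO2 replicate 1 or 2 (up to 0.0798). Sp100 in KO1 turned to -0.51 when its neighbours' median was subtracted.

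**Figure D4:**
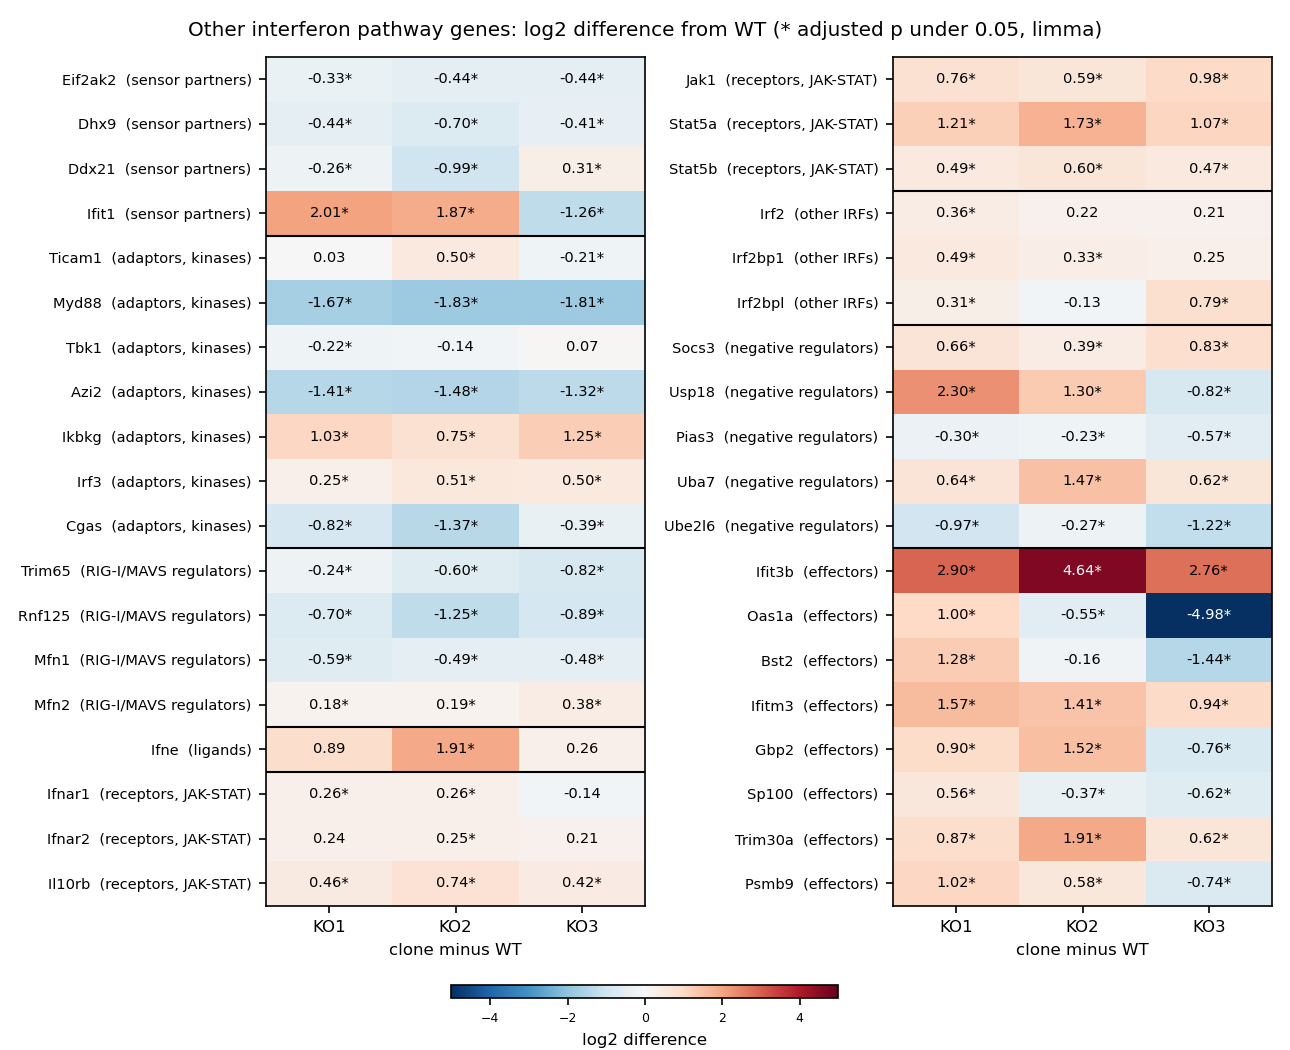
Log2 difference from WT (colour and printed value) of named pathway genes, in rows by list, for KO1, KO2 and KO3 (columns); stars mark an adjusted p under 0.05 by limma. Ifit1, Usp18, Gbp2 and Psmb9 are above 0 in KO1 and KO2 and below 0 in KO3, while Myd88 and Azi2 are below 0 in all 3.

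Most of the interferon genes listed here were not detected at this depth. Of 11 listed ligands, 9 (Ifnb1, Ifna1, Ifna2, Ifna4, Ifna5, Ifnk, Ifng, Ifnl2 and Ifnl3) had 0 reads in all 12 libraries, under the floor given for Ifih1. Ifnz had 14 reads in KO1, 23 in KO2, 4 in KO3 and 13 in WT. Ifne was the only ligand tested, with 10.8 ± 0.4 normalized read counts in KO2 and 3.70 ± 4.73 in WT; it passed the filter through KO2, and its call there (log2 difference 1.91, adjusted p = 0.0304; limma) was lost with edgeR (adjusted p = 0.0851), with DESeq2 (0.127), and without WT replicate 1 or 2 or any 1 KO2 library (0.0619 to 0.121).

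Of 13 tested receptor, JAK and STAT genes, those that rose and fell numbered 8 and 0 in KO1, 10 and 0 in KO2, and 6 and 2 in KO3 (61.5%, 76.9% and 46.2% rose, against 26.9%, 29.9% and 26.8% of all genes). Over the alternatives, 6 to 11 rose in KO1, 7 to 10 in KO2 and 5 to 7 in KO3. Those that fell were 0 to 1 in KO1, 0 to 1 in KO2 and 1 to 3 in KO3. The 2 that fell in KO3 were 1 without KO3 replicate 1 or 2. Jak1, a kinase of the interferon receptors, rose in all 3 clones (0.76, 0.59 and 0.98), as did Stat5a (1.21, 1.73 and 1.07), Stat5b (0.49, 0.60 and 0.47) and the shared receptor subunit Il10rb (0.46, 0.74 and 0.42). Ifnar1, a chain of the type I interferon receptor, rose in KO1 and KO2 by 0.26 in each and was at -0.14 in KO3 (adjusted p = 0.0290, 0.0275 and 0.231), and Ifnar2 was at 0.24, 0.25 and 0.21 (adjusted p = 0.0568, 0.0430 and 0.0869). The calls of Ifnar1 were lost without WT replicate 2 or 3 or any 1 library of the clone itself (adjusted p from 0.0546 to 0.121), and that of Ifnar2 in KO2 without any of 8 libraries (0.0514 to 0.158). With the neighbours' median subtracted, Ifnar1 was at 0.14 in KO1 and 0.19 in KO2 and Ifnar2 at 0.21 in KO2 (adjusted p = 0.212, 0.0716 and 0.0879).

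Among 22 adaptors and kinases, the counts that rose and fell were 3 and 8 in KO1, 5 and 7 in KO2, and 4 and 8 in KO3. The shares that rose were 13.6%, 22.7% and 18.2%, beside 26.9%, 29.9% and 26.8% of all genes, and those that fell 36.4%, 31.8% and 36.4%, beside 25.4%, 30.5% and 27.3%. Over the alternatives, 1 to 5 rose and 4 to 10 fell in KO1. The count that rose there was 1 without WT replicate 2, and the count that fell was 4 without KO1 replicate 2 or 3 and 5 without WT replicate 1. Myd88, the adaptor of most Toll-like receptors but not of TLR3, fell to 1482 ± 71 normalized read counts in KO1, 1320 ± 27 in KO2 and 1346 ± 78 in KO3, against 4717 ± 275 in WT (log2 differences -1.67, -1.83 and -1.81). Azi2, which binds TBK1, fell in each clone (-1.41, -1.48 and -1.32), and Cgas, the cytosolic DNA sensor, fell in each clone (-0.82, -1.37 and -0.39). Ticam1, which encodes TRIF, the adaptor of TLR3, rose in KO2 (0.50, adjusted p = 1.27e-04) and fell in KO3 (-0.21, adjusted p = 0.0416), with 0.03 in KO1 (adjusted p = 0.806; limma). Irf3, the factor that MAVS and TRIF activate, rose in all clones (0.25, 0.51 and 0.50), and Ikbkg, the scaffold of the IKK complex, did as well (1.03, 0.75 and 1.25). Tbk1, the kinase of IRF3, fell in KO1 (-0.22), with -0.14 in KO2 and 0.07 in KO3 (adjusted p = 0.0736 and 0.412). The fall of Ticam1 in KO3 was lost in 8 alternatives, with -0.12 (adjusted p = 0.179) without KO3 replicate 2 and 0.0509 to 0.116 without WT replicate 2 or 3, KO1 replicate 3 or KO2 replicate 2 or 3. Irf3 in KO1 was lost without KO1 replicate 1 (0.0912) or WT replicate 2 (0.0735). With the neighbours' median subtracted, Irf3 was at 0.03 in KO1 (adjusted p = 0.795) and 0.23 in KO2 (0.0527). Tbk1 in KO3 turned to -0.19 (0.0483) in that step, and its fall in KO1 was lost without KO1 replicate 2 (0.0578).

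Of 25 regulators of RIG-I and MAVS, 4 were higher and 7 lower in KO1, 5 and 8 in KO2, and 6 and 6 in KO3. The shares that fell (28%, 32% and 24%) were near the background of 25.4%, 30.5% and 27.3%. In KO1 2 were higher without KO1 replicate 1 or 3, and 3 were lower without KO1 replicate 2 or 3 and 4 without WT replicate 2 or 3; in KO2 9 were higher without WT replicate 1 and 10 with quantile normalization. Rnf125, a ubiquitin ligase for RIG-I, fell in all clones (-0.70, -1.25 and -0.89), as did Trim65, a ligase for MDA5 (-0.24, -0.60 and -0.82). In KO1 the Trim65 call was lost without any 1 KO1 library or WT replicate 2 or 3 (adjusted p from 0.0515 to 0.108). The mitofusin genes moved apart: Mfn1 fell (-0.59, -0.49 and -0.48) and Mfn2 rose (0.18, 0.19 and 0.38). With the neighbours' median subtracted, Mfn1 was at -0.15 in KO2 (adjusted p = 0.236) and -0.26 in KO3 (0.0513), and Mfn2 in KO1 was at -0.05 (0.520). Of 15 sensor partners, 2 were higher and 8 lower in KO1, 2 and 8 in KO2, and 3 and 6 in KO3 (53.3%, 53.3% and 40% lower, beside 25.4%, 30.5% and 27.3% of all genes). Tlr7 and Ddx60 averaged under 10 in WT and passed the filter through clones. Ddx60 was among those called higher in KO1 (2.51), and Tlr7 among those in KO2 (1.26) and KO3 (1.42). In KO1 5 of the 15 were lower without KO1 replicate 2 or 3 or WT replicate 1, and 1 was higher without KO1 replicate 3. In KO2 1 was higher without KO2 replicate 2. Eif2ak2, which encodes the RNA-activated kinase PKR, fell in all clones (-0.33, -0.44 and -0.44), and so did the helicase gene Dhx9 (-0.44, -0.70 and -0.41; in KO3 the adjusted p was 0.0513 without KO3 replicate 3). Ddx21, an RNA helicase gene, fell in KO1 and KO2 (-0.26 and -0.99) and rose in KO3 (0.31). Its KO1 call was lost without WT replicate 1, KO3 replicate 1 or any 1 KO1 library (adjusted p from 0.0509 to 0.129), and its KO3 call without KO3 replicate 2 or WT replicate 2 or 3 (0.0583 to 0.0679). With the neighbours' median subtracted, Eif2ak2 was at -0.07 in KO1 (adjusted p = 0.499) and -0.19 in KO2 (0.0670), Dhx9 at -0.13 in KO3 (0.250), and Ddx21 at 0.03 in KO3 (0.805).

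Of 7 other interferon regulatory factors and partners, 6 were higher and 1 lower in KO1, 2 and 0 in KO2, and 3 and 1 in KO3. The shares higher were 85.7%, 28.6% and 42.9%, beside 26.9%, 29.9% and 26.8% of all genes. Of the 7, 2 averaged under 10 in WT and passed the filter through a clone. In KO2 1 was higher without KO2 replicate 1 or 2, and 1 was lower without WT replicate 1; in KO3 5 were higher with the neighbours' median subtracted. Of 15 negative regulators and ISG15 enzymes, 5 were higher and 3 lower in KO1, 3 and 4 in KO2, and 3 and 8 in KO3 (20%, 26.7% and 53.3% lower, beside 25.4%, 30.5% and 27.3% of all genes). Usp18, which is among them, averaged under 10 in WT and passed the filter through clones. In KO1 3 of the 15 were higher without KO1 replicate 2, and in KO3 5 were lower without KO3 replicate 1 or WT replicate 1, and 4 with only the 2 groups compared. Usp18, which dampens the type I receptor, had 44.1 ± 4.6 normalized read counts in KO1, 21.5 ± 2.7 in KO2, 4.39 ± 1.89 in KO3 and 8.17 ± 1.13 in WT (2.30, 1.30 and -0.82). The KO3 call of Usp18 (adjusted p = 0.0303; limma) was lost with edgeR (0.0894), with DESeq2 (0.159), and without KO3 replicate 1 or 2 or WT replicate 2 or 3 (0.0610 to 0.117). Socs3 rose in all clones (0.66, 0.39 and 0.83), and so did Uba7, the activating enzyme for ISG15 (0.64, 1.47 and 0.62), while its conjugating enzyme gene Ube2l6 fell (-0.97, -0.27 and -1.22). With the neighbours' median subtracted, Socs3 was at 0.17 (adjusted p = 0.0524) and Ube2l6 at -0.10 (0.307) in KO2, and Usp18 at -0.70 (0.0755) in KO3. Uba7 lost its KO1 call without KO1 replicate 2 or 3 or WT replicate 1 (adjusted p from 0.0756 to 0.0932), and its KO3 call without KO3 replicate 1 or WT replicate 1 (0.0841 to 0.116).

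In the authors' deposited table, the log2 fold changes of Ddx58 were 0.77 in KO1, 0.96 in KO2 and 0.05 in KO3. The authors' deposited table gave Irf1 as 0.37, 0.66 and -0.11, Mavs in KO3 as -0.26 (adjusted p = 0.00800, DESeq2), Tlr3 in KO3 as -0.56 (adjusted p = 0.0101, DESeq2) and Irf9 in KO3 as -0.28 (adjusted p = 0.0493, DESeq2). For Ifih1 and Irf7 it gave no adjusted p.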

How the data were processed

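Total RNA libraries (cytoplasmic ribosomal RNA removed, random hexamer priming, per the labels' protocols) came from 3 libraries each of KO1, KO2, KO3 and WT. The tools named per the submitters' processing notes are DESeq2 1.24.0, Salmon 0.14.1 and cutadapt, with the build GRCm38 (mm10); neither their settings nor the strandedness of counting is given there. The authors deposited normalized read counts, a signal that is never negative: 99.952% to 99.985% of the values of a library were whole multiples of 1 step within 0.02, so reads could be recovered by dividing. Salmon estimates counts, so these reads may be rounded estimates, and intervals and floors cover counting error only. The authors also deposited, per the file headers, tables for each clone against WT that hold DESeq2 log2 fold changes, their errors and p-values. All but 35 gene identifiers matched GENCODE M21, and 0 sample columns were left unused.

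Limma 3.58.1 (R 4.3.3) with a trended prior was fitted to log2(normalized count + 1) in all 12 libraries (8 residual degrees of freedom), over genes with at least 10 in at least 3 libraries. All tests were two-sided at an adjusted p of 0.05, and fold changes on this scale understate those of low genes. The alternatives were pseudocounts of 0.5 and 5, no filter, a mean of at least 100, quantile normalization, a replicate block, edgeR 4.0.16 and DESeq2 1.42.0 on the recovered reads, the authors' tables, only the 2 groups compared, subtraction of the median of 25 neighbours on each side, and each library left out. The counts of effectors without WT replicate 1, and over effectors with a WT mean of at least 10, were added after the values were seen. The code was checked on simulated data. Named pathway genes are, per list, up to 4 with the smallest largest-of-3 adjusted p, those called in opposite directions with log2 differences of at least 0.5, all ligands, and a few genes whatever their values, among them Ifnar1, Ifnar2, Irf3, Tbk1 and Ticam1; some genes that the rule names are not reported here. The members, lists and rules were chosen with earlier results of these data known.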

Additional observations from a re-analysis of the deposited data

Results flagged for a closer look

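The effect of a clone against WT differed between clones for 5 members, by limma's test of the clone difference itself. For Ddx58 the log2 difference was 0.19 in KO2 against KO1, -0.73 in KO3 against KO1 and -0.92 in KO3 against KO2. For Irf1 the corresponding differences were 0.29, -0.48 and -0.77. Mavs was lower in KO3 than in KO1 (-0.28) and than in KO2 (-0.44), Tlr3 likewise (-0.63 and -0.60), and Irf9 too (-0.35 and -0.31). With the neighbours' median subtracted, the Mavs differences were 0.04 and -0.01. The calls of Tlr3 and of Irf9 each held in 18 of 22 alternatives against KO1 and 17 of 22 against KO2. KO1 and KO2 were not called different for Mavs, Tlr3 or Irf9 (0.16, -0.04 and -0.04, adjusted p = 0.112, 0.902 and 0.779; limma).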

How the results depend on the processing

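Over the alternatives, 886 values for member differences kept their direction and side of the threshold, 38 lost a call, 12 gained one and 3 turned; for the other named genes these were 2652, 136, 20 and 3. The 3 that turned among members did so with the neighbours' median subtracted: Mavs in KO3 against WT (0.0689) and against KO1 (0.0443), and Stat2 in KO3 against WT (-0.51). The same step turned Tbk1 in KO3 (-0.19), Mfn2 in KO1 (-0.0466) and Sp100 in KO1 (-0.51); the cause was not tested. It left 3 members lower in KO3, but these were Irf1, Stat2 and Irf9. With no filter, and with only the 2 groups compared, 1 member fell in KO3 in place of 3.

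Leaving out each library gave 2 to 4 members that rose in KO1, 2 to 4 in KO2 and 0 to 1 in KO3, the upper values without WT replicate 1. Members that fell numbered 1 to 3 in KO3 against WT (1 without WT replicate 1, KO2 replicate 2, KO3 replicate 2 or KO3 replicate 3), 2 to 5 in KO3 against KO1 (2 without KO1 replicate 3, 3 without KO1 replicate 1 or KO3 replicate 2) and 3 to 6 in KO3 against KO2 (3 without KO2 replicate 3 or KO3 replicate 2). In KO2 against KO1, 1 to 2 rose (1 without KO1 replicate 1). Other pathway genes that fell in KO1 numbered 18 to 29, with 18 without KO1 replicate 2 or 3.

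Replicate numbers did not pair the libraries: correlations of same-numbered deviations ran from -0.22 to 0.12, with 2 of 18 above 0.1, and in 7 of the 18 pairs the correlation was best for the same number. With a replicate block, 7521, 8862 and 7865 genes were called in KO1, KO2 and KO3 against WT (7878, 9105 and 8151 without it), and the member counts were the same. Depth limits Dhx58, Ifih1 and Irf7. Values rest on 3 libraries of 1 clone each.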

Other observations

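Further genes of the lists were chosen after their values were seen. Stat3 rose in KO2 (log2 difference 0.72) and fell in KO3 (-0.44), with 0.07 in KO1 (adjusted p = 0.462; limma). Parp14 rose by 5.54 in KO1, 2.03 in KO2 and 2.00 in KO3, Batf2 rose in KO1 (3.19) and Ddx60 rose in KO1 (2.51), and all of these averaged under 10 normalized read counts in WT, so they passed the filter through a clone. Zc3hav1, an antiviral zinc finger gene, rose in KO3 (0.70), with 0.03 in KO1 and -0.10 in KO2 (adjusted p = 0.684 and 0.152; limma). Ifi27l2a fell in KO3 (-2.36), with 0.16 in KO1 and 0.08 in KO2 (adjusted p = 0.727 and 0.859; limma). Irf5 fell in KO1 (-0.66) and KO3 (-1.16), with a difference of 0.00 in KO2. The effectors that fell in KO1 were Ifit2 (-0.50) and Samd9l (-0.50), and those that fell in KO2 were Oas1a and Sp100.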
